A study of Mus musculus with 3 samples.

Results

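Acinar cells are the enzyme-secreting cells of the exocrine pancreas, and the barcodes described here carried acinar RNA together with a high share of RNA from the mitochondrial genome. They were selected on 2 measured shares. A barcode (the tag of 1 droplet, taken as 1 cell) with at least 500 UMIs (unique molecular identifiers, 1 per captured RNA molecule) and at least 200 genes was called acinar when 16 acinar genes held 45% or more of its UMIs. It was called mitochondrial-rich when genes of the mitochondrial genome held 5 to 20% of its UMIs. The rule found 10234 such barcodes among 31488 acinar barcodes, 37076 barcodes past both minimums and 41134 deposited barcodes. They were set against 13580 acinar barcodes of the same libraries with a mitochondrial share under 2%, called low-mitochondrial here.

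The study measured single-cell RNA of dissociated mouse pancreas with the 10x Chromium 3-prime kit, version 3, which counts polyadenylated RNA. There were 3 libraries, 1 per group: an exercise library labelled diabetic-Exercise, a sedentary library labelled diabetic and a sedentary library labelled none. The series text describes treadmill training of db/db males 6 weeks old; these mice carry a leptin receptor that cannot signal, and are a common model of obesity with type 2 diabetes. For the library labelled none the labels state no genotype, sex or age, and for no library do they state the age at sampling or the number of mice. With 1 library per group, a difference between groups cannot be told apart from a difference between dissociations, animals or libraries, and no test between groups was possible.

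The mitochondrial genome encodes 13 proteins of the respiratory chain, 2 ribosomal RNAs and the transfer RNAs that translate them. Its RNAs stay inside the organelle, whereas the messenger RNAs of digestive enzymes lie in the cytoplasm, mostly on the rough endoplasmic reticulum (ER). Acinar cells hold many mitochondria to drive enzyme synthesis and secretion. In droplet data a high mitochondrial share is widely used as a sign of stressed or leaky cells, and barcodes above a ceiling are often left out. Some long RNAs, such as Malat1, remain in the nucleus.

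One feature of the mouse genome bears on how these RNAs were counted. A stretch of nuclear chromosome 1 (chr1:24611535-24616197, minus strand, GRCm38, GENCODE M21 annotation) holds near-identical copies of 7 mitochondrial genes, annotated as separate pseudogenes whose names do not mark them as mitochondrial. Gm28438 at chr1:24612775-24613119 matches the mitochondrial gene mt-Nd3 over 345 bases with 1 difference, T3C, counted from the gene's first base with the base of mt-Nd3 first. The match stops short of the end of mt-Nd3, which is 348 bases long. The starts of both genes, from the GENCODE M21 transcripts of GRCm38, are shown with the only base that differs within the match in capitals:
mt-Nd3: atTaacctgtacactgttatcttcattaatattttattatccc
Gm28438: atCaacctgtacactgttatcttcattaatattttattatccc
Gm28437, Gm10925 and Gm28661 match mt-Co3, mt-Atp6 and mt-Co2 with no difference over 783, 678 and 681 bases. The share rule counted only the 37 genes named mt-, so UMIs given to the copies stayed outside the mitochondrial share. In mitochondrial-rich barcodes, mt-Nd3 and Gm28438 held 126 and 18222 UMIs in the exercise library, 362 and 1496 in the diabetic sedentary library, and 154 and 125 in the library labelled none. Of the UMIs of this pair, 99.3%, 80.5% and 44.8% were on the nuclear copy in those libraries, close to the 98.8%, 76.5% and 46.8% of their low-mitochondrial barcodes. The split therefore differed between libraries far more than between the 2 kinds of barcode. Which base the RNA itself carried was not read, and whether this base set the split was not tested. Values of these genes and their copies are therefore uncertain. The 5 mitochondrial genes copied over nearly their whole length held 0.920%, 0.687% and 1.74% of all mitochondrial UMIs in mitochondrial-rich barcodes of the 3 libraries, and the 18222, 1496 and 125 UMIs of Gm28438 stood beside 1680046, 113324 and 10583 UMIs of genes named mt-.

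The exercise library held most of the mitochondrial-rich barcodes. It had 9404, which is 66.8% of its 14083 acinar barcodes (95% Clopper-Pearson interval 66.0 to 67.6%). The diabetic sedentary library had 751 of 9327 (8.05%, 7.51 to 8.62%), and the library labelled none had 79 of 8078 (0.978%, 0.775 to 1.22%). Low-mitochondrial barcodes made up 576 (4.09%), 5515 (59.1%) and 7489 (92.7%) of the acinar barcodes in the same libraries. These intervals cover counting error only. The shares are the rule's own output and are given as a description. Barcodes outside the acinar minimum followed the same order: 56.3% of 2141 in the exercise library, 36.8% of 2356 in the diabetic sedentary library and 1.47% of 1091 in the library labelled none lay between 5 and 20% mitochondrial. The high share in the exercise library was thus not limited to barcodes that met the acinar minimum. Some of those outside it lay close to it. Of the 1205 in that window in the exercise library, 184 had 35 to 40% and 289 had 40 to 45% of UMIs in the 16 genes. In the diabetic sedentary library they were 124 and 149 of 867.

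**Figure D1:**
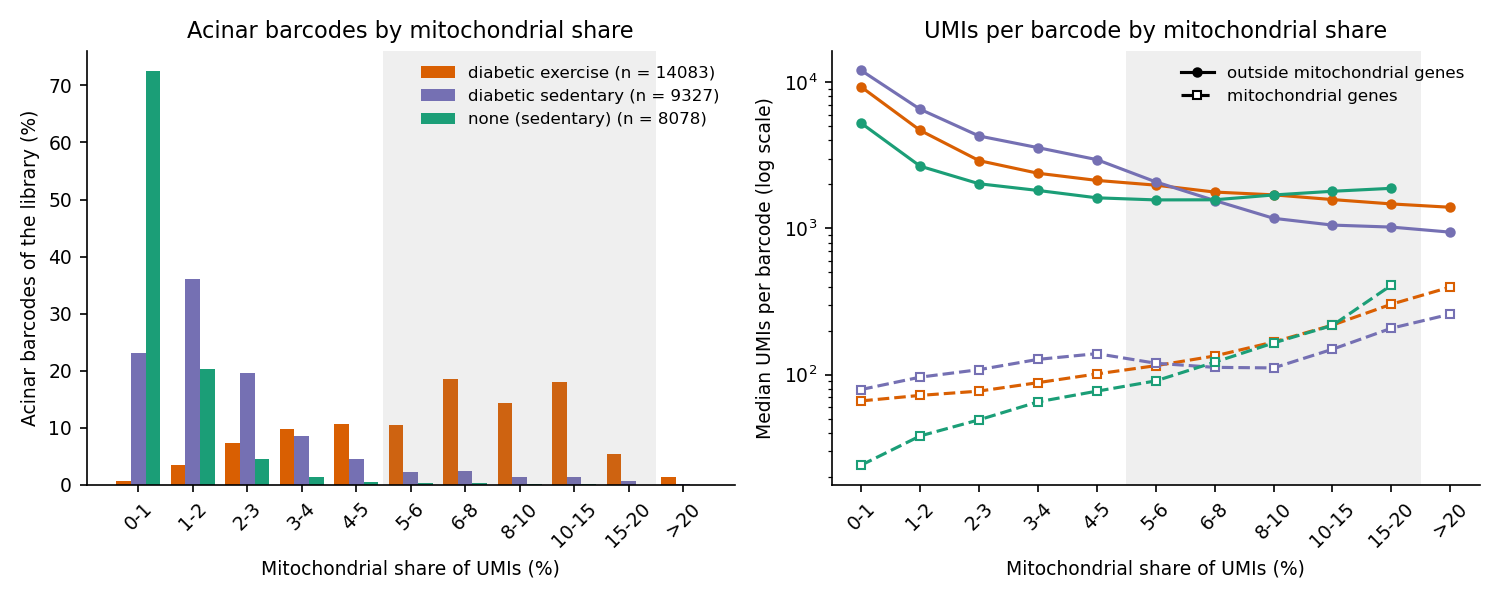
Left, share of each library's acinar barcodes (%) in bands of mitochondrial share; right, median UMIs per acinar barcode (log scale) outside mitochondrial genes (filled circles, solid lines) and in mitochondrial genes (open squares, dashed lines), for the exercise, diabetic sedentary and none libraries, with the 5 to 20% window shaded. Most acinar barcodes of the exercise library lie in the window, and in every library UMIs outside mitochondrial genes fall over the low bands while mitochondrial UMIs go up.

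The libraries differed in depth as well. They held 45209034 UMIs over 18433 barcodes (exercise), 80185752 over 12743 (diabetic sedentary) and 54128454 over 9958 (none), with medians of 1887, 4640 and 3951.5 UMIs per barcode. The 200-gene minimum left out 2209, 1060 and 789 barcodes, and every deposited barcode had at least 500 UMIs. The same barcode sequence occurred in 61, 43 and 32 cases between pairs of libraries, and in 0 cases among mitochondrial-rich barcodes. Scrublet's automatic threshold marked 0% of barcodes as doublets and so did not work, and none were removed in the main results.

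Mitochondrial-rich barcodes held fewer UMIs than low-mitochondrial ones. Median UMIs per barcode were 1850 (quartiles 1671 and 2182) against 5130 in the exercise library, 1452 against 8288 in the diabetic sedentary library and 1758 against 4493 in the library labelled none. The difference went the same way in all 3 libraries. Split by source, median mitochondrial UMIs were 169 against 71.5, 129 against 90 and 124 against 26 in the same order. Median UMIs of the 16 acinar genes were 1116 against 3364.5, 802 against 5679 and 1036 against 3051. All remaining genes together gave medians of 555.5 against 1675, 526 against 2426 and 579 against 1434 UMIs. A mitochondrial-rich barcode thus had more mitochondrial UMIs and fewer of all other UMIs, and in number the deficit outside the mitochondrial genes was the larger. Since the share is a ratio, fewer other UMIs raise it on their own, and the rule does not separate the parts.

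Fewer genes were detected per mitochondrial-rich barcode, with medians of 241 against 471.5 in the exercise library, 272 against 543 in the diabetic sedentary library and 247 against 416 in the library labelled none. When every barcode was thinned to 500 UMIs the medians were 99 against 100, 124 against 81 and 110 against 90. At equal depth mitochondrial-rich barcodes therefore had about as many genes as low-mitochondrial ones in the exercise library and more in both sedentary libraries. Medians before thinning lie near the 200-gene minimum in mitochondrial-rich barcodes, and the part of that minimum in these numbers was not tested.

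Median UMIs changed little across the lower mitochondrial limit in the exercise library and the library labelled none, and more in the diabetic sedentary library. In the exercise library 1479 barcodes just inside the lower limit (5 to 6% mitochondrial) had a median of 2094 UMIs, and 1492 just outside it (4 to 5%) had 2227. In the diabetic sedentary library 202 just inside had 2195 UMIs and 428 just outside had 3092.5. In the library labelled none 24 just inside had 1662 and 43 just outside had 1695. At the upper limit the exercise library had 768 barcodes at 15 to 20%, with a median of 1777 UMIs, and 197 above 20%, with 1806. At the acinar limit it had 742 mitochondrial-rich barcodes with 45 to 50% of UMIs in the 16 genes and 289 otherwise alike with 40 to 45%, with medians of 1130.5 and 1040.0 UMIs.

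The acinar label was checked on acinar genes that the rule did not use. CPM here and below means the counts-per-million scale, with UMIs as the counts, for that class of barcodes and library, outside the 37 mitochondrial genes and the 16 acinar genes of the rule, adjusted by edgeR's TMM factors. Pnliprp1, a pancreatic lipase-related protein, had 54859.5 CPM in mitochondrial-rich against 72343 CPM in low-mitochondrial barcodes of the exercise library, 36229 against 92173 CPM in the diabetic sedentary library and 22874 against 52242 CPM in the library labelled none. Bhlha15, the acinar transcription factor MIST1, had 159.8 against 242 CPM, 90.2 against 182 CPM and 86.6 against 175 CPM in the same libraries. Both genes were thus present in both classes of every library, and at a lower level in mitochondrial-rich barcodes. The level of Bhlha15 in mitochondrial-rich barcodes of the library labelled none rests on 7 UMIs. Of 12 acinar markers outside the rule, 11 were fitted lower in the comparison below. Their sum was 0.882, 0.437 and 0.426 times the low-mitochondrial level in the same libraries. Scaled by total UMIs it was 0.989, 0.749 and 0.867 times. Among the 16 genes the mix was similar: Ctrb1, chymotrypsinogen B, held 24.1% of their UMIs in mitochondrial-rich and 22.9% in low-mitochondrial barcodes of the exercise library, 23.1% and 23.9% in the diabetic sedentary library, and 17.4% and 16.6% in the library labelled none.

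A few of the 16 genes took a larger or smaller part of acinar UMIs in every library. Cela2a, a pancreatic elastase, held 4.12% in mitochondrial-rich against 2.97% in low-mitochondrial barcodes of the exercise library, 4.19% against 3.45% in the diabetic sedentary library and 6.04% against 5.48% in the library labelled none. Cel, the bile salt-activated lipase, held 1.10% against 1.77%, 1.06% against 1.20% and 1.63% against 1.94% in the same libraries. Cpb1, procarboxypeptidase B, held 4.23% against 5.81%, 4.04% against 4.27% and 4.17% against 4.45%. Cela2a was thus higher, and Cel and Cpb1 were lower, in mitochondrial-rich barcodes of all 3 libraries, with the widest gaps for Cel and Cpb1 in the exercise library. These genes chose the barcodes through their sum, so the mix is given as a description.

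Which mitochondrial RNAs filled the share was not fixed by the rule, and the mix was close between the classes. UMIs of a 3-prime kit are not levels per length, so a gene's share is compared between barcodes and not with other genes. mt-Cytb, cytochrome b of complex III, held 30.10% of mitochondrial UMIs in mitochondrial-rich against 29.96% in low-mitochondrial barcodes of the exercise library. It held 33.8% against 34.9% in the diabetic sedentary library and 36.6% against 39.9% in the library labelled none. mt-Nd1, mt-Nd2 and mt-Nd4, subunits of complex I, held 15.3%, 14.2% and 16.9% in mitochondrial-rich against 16.6%, 15.5% and 18.3% in low-mitochondrial barcodes of the exercise library. No single RNA made up the high share: it was spread over the same genes that led in low-mitochondrial barcodes.

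The mitochondrial ribosomal RNAs mt-Rnr1 (12S) and mt-Rnr2 (16S) were the part of the mix that moved most, in percentage points, in the exercise library. Together they held 18.4% of mitochondrial UMIs in mitochondrial-rich against 14.3% in low-mitochondrial barcodes there, 11.9% against 10.9% in the diabetic sedentary library and 5.78% against 6.02% in the library labelled none. By the main rule the share was thus higher in both diabetic libraries. In the library labelled none the intervals overlapped (5.35 to 6.24% against 5.92 to 6.12%), and with a 60% acinar minimum the order there turned, to 6.71% against 5.99%. With barcodes chosen on the 13 protein genes alone, the gap in the exercise library narrowed to 18.5% against 16.4%. In the diabetic sedentary library the shares were then 11.6% against 11.3%, with overlapping intervals (11.37 to 11.77% against 11.25 to 11.41%). In the library labelled none they were 5.13% against 6.07%. In UMIs per barcode by the main rule, the pair averaged 32.9 against 12.1 in the exercise library, 18.0 against 10.5 in the diabetic sedentary library and 7.75 against 1.74 in the library labelled none.

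mt-Atp6 and mt-Co3, a subunit of the ATP synthase and one of cytochrome c oxidase, took smaller shares of mitochondrial UMIs in mitochondrial-rich barcodes. mt-Atp6 held 0.513% (interval 0.503 to 0.524%) against 0.677% (0.606 to 0.754%) in the exercise library, 0.189% against 0.238% in the diabetic sedentary library and 0.132% (0.0723 to 0.222%) against 0.201% in the library labelled none. mt-Co3 held 0.264% against 0.415%, 0.109% against 0.145% and 0.104% against 0.133%. Both were lower in all 3 libraries, although the intervals of the library labelled none overlap. Each has an identical nuclear copy. The 4 genes used to mark these barcodes thus split by the main rule: the ribosomal RNAs made up more of the mitochondrial UMIs in 2 libraries, and mt-Atp6 and mt-Co3 made up less in all 3.

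**Figure D2:**
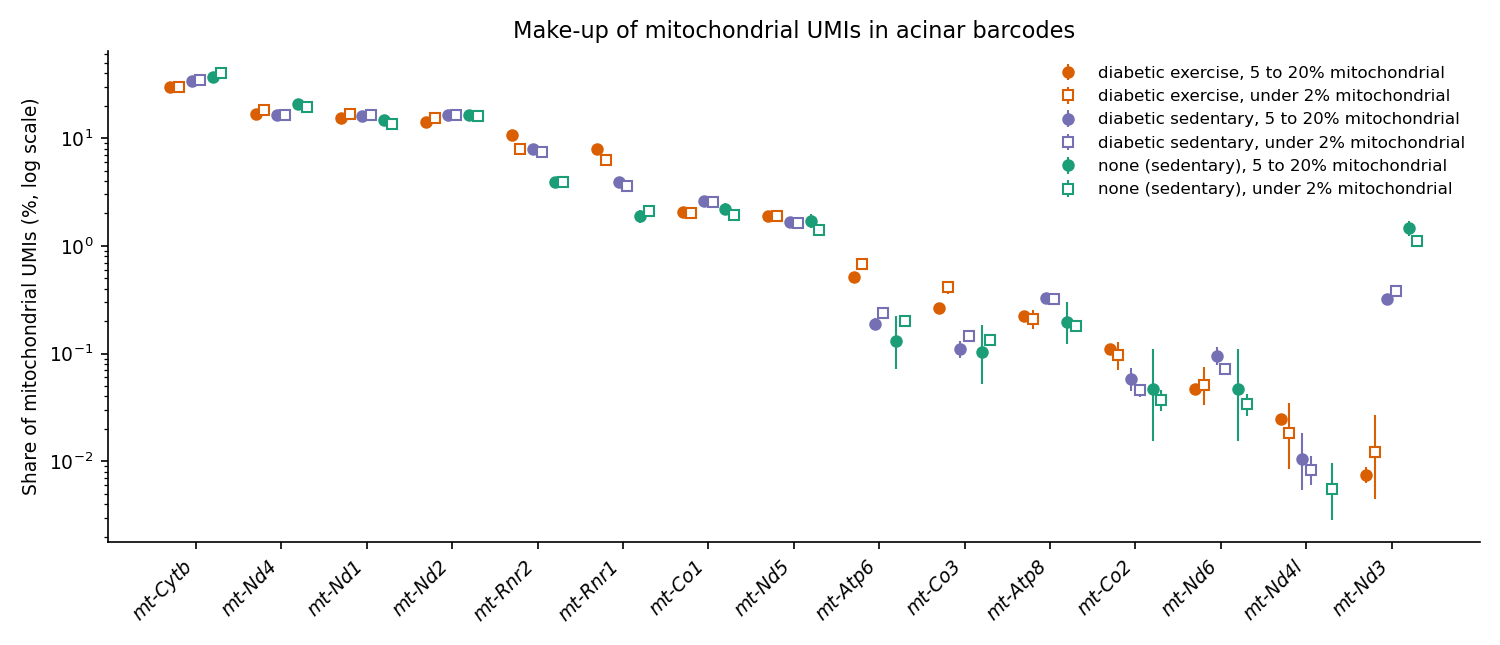
Share of mitochondrial UMIs (%, log scale) held by each of the 13 mitochondrial protein genes and 2 ribosomal RNAs in mitochondrial-rich (filled) and low-mitochondrial (open) acinar barcodes of the exercise, diabetic sedentary and none libraries, with 95% Clopper-Pearson bars; a share of 0 (mt-Nd4l in mitochondrial-rich barcodes of the library labelled none) has no point. Genes keep nearly the same order in both classes, with mt-Rnr1 and mt-Rnr2 higher in mitochondrial-rich barcodes of the exercise library.

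Genes outside the rule were compared between the classes within each library, with the library as the replicate. UMIs were summed per library and class, and edgeR's quasi-likelihood test with a library term was run on 9349 genes. It called 216 genes higher in mitochondrial-rich barcodes (2.31% of those tested) and 25 lower (0.267%) at a Benjamini-Hochberg adjusted p under 0.05. Of these, 90 higher and 25 lower went the same way in every library. At an unadjusted p under 0.05 there were 1294 of the 9349 genes, both directions together. The unadjusted counts of gene lists below stand beside that share. The mitochondrial-rich sum of the library labelled none rests on 79 barcodes and 49538 UMIs outside the rule genes, and 42.8% of tested genes had 0 UMIs in it. So did 96 of the 216 higher calls and 12 of the 25 lower ones. Their direction in that library rests on a constant added to the counts and on depth. All p-values measure the spread between 3 libraries that differ in treatment. DESeq2, run as a second test, gave no adjusted p for 8700 of 9349 genes. A list member without a DESeq2 call was therefore often not open to one.

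Scaling set much of the picture. TMM places the median gene at about no change, while scaling by total UMIs outside the rule genes places it above: by 0.17, 0.80 and 0.99 on the log2 scale in the exercise, diabetic sedentary and none libraries. Scaled by total UMIs, 558 genes were called higher and 7 lower; all 216 higher calls were among them, and 2 of the 25 lower ones. The calls also rested on single libraries: 38 higher and 150 lower were called without the exercise library, 1 and 0 without the diabetic sedentary library (108 genes at an unadjusted p under 0.05), and 396 and 40 without the library labelled none. The 1 call without the diabetic sedentary library was Gm28437, the nuclear copy of mt-Co3. Among barcodes of 1000 to 3000 UMIs, 2 genes were called higher and 0 lower by edgeR out of 1852 that could be tested (114 at an unadjusted p under 0.05). The 2 were Gm28438, the nuclear copy of mt-Nd3, and Iapp. All 53 higher and 13 lower calls of the main fit that were tested there kept their sign. This band narrows the range of depth, but depth within it was not compared between the classes. Depth per barcode thus moved with the class, and its part in the other calls was not separated.

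**Figure D3:**
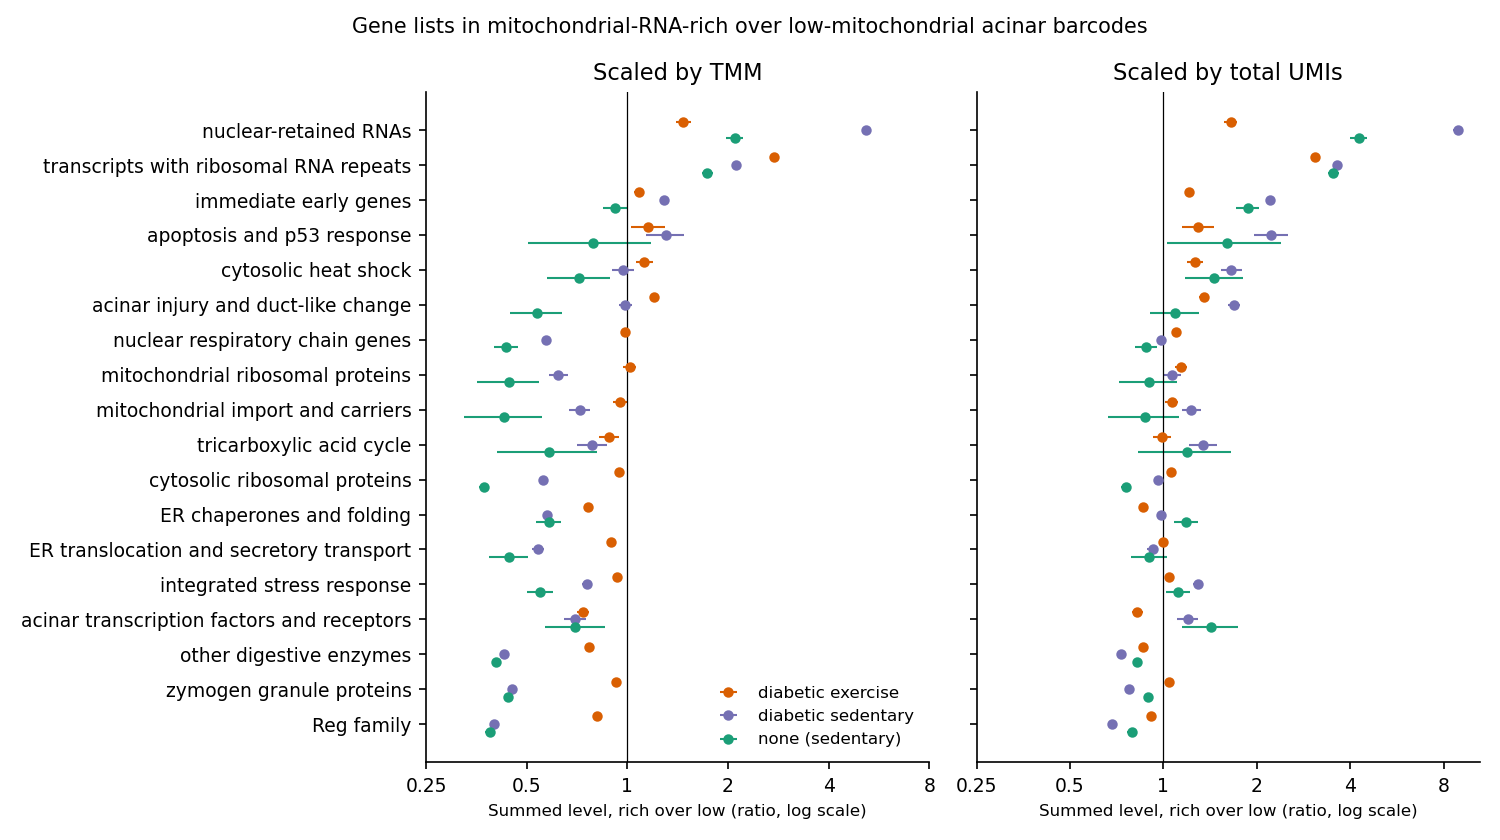
Summed level of gene lists in mitochondrial-rich over low-mitochondrial acinar barcodes (ratio, log scale) for the exercise, diabetic sedentary and none libraries, scaled by TMM (left) and by total UMIs outside the rule genes (right), with exact Poisson 95% bars that cover counting error only. Nuclear-retained RNAs and transcripts with ribosomal RNA repeats lie above 1 in all 3 libraries under both scalings, and other digestive enzymes and the Reg family lie below 1 under both.

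Long RNAs that stay in the nucleus made up more of mitochondrial-rich barcodes. Of 9 tested members of a list of such RNAs, 2 were called higher by edgeR, beside 2.31% of all genes, all 9 were fitted above 0, and their median was 1.39 on the log2 scale, beside -0.03 over all genes tested. Their sum was 2149 CPM in mitochondrial-rich against 1463 CPM in low-mitochondrial barcodes of the exercise library, 7390.4 against 1426 CPM in the diabetic sedentary library and 13059 against 6240.1 CPM in the library labelled none. The ratios were 1.47, 5.18 and 2.09 with TMM, and 1.65, 8.88 and 4.26 by total UMIs, so the sum was higher in every library under both scalings.

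Kcnq1ot1, an antisense RNA that silences its imprinted neighbours, was at 25.6 CPM in mitochondrial-rich against 13.2 CPM in low-mitochondrial barcodes of the exercise library, 125 against 18.2 CPM in the diabetic sedentary library and 186 against 55.6 CPM in the library labelled none. It rose by 2.01 on the log2 scale (SE 0.31, edgeR adjusted p = 2.84e-07). As CPM, Kcnq1ot1 was higher in all 3 libraries, and most so in the diabetic sedentary library. Per barcode it averaged 0.0148 against 0.0278 UMIs in the exercise library, which is fewer. The averages were 0.101 against 0.0393 in the diabetic sedentary library and 0.190 against 0.0920 in the library labelled none. Its log2 difference was 2.23 without the exercise library, 1.34 without the diabetic sedentary library, where it no longer passed, and 2.14 without the library labelled none. It lies antisense to Kcnq1, and whether the authors' counting used strand is not stated, so reads of the pair may not be told apart. Mir99ahg, the host transcript of a microRNA cluster, was the other call (1.24, SE 0.34, edgeR adjusted p = 0.0151), with 38.5 against 24.8 CPM, 57.4 against 13.4 CPM and 12.4 against 17.0 CPM. Its value in mitochondrial-rich barcodes of the library labelled none rests on 1 UMI, and without the diabetic sedentary library its log2 difference was 0.49 and did not pass.

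Malat1, which held the most UMIs of these RNAs, had 1532 CPM in mitochondrial-rich against 900.0 CPM in low-mitochondrial barcodes of the exercise library, 5872 against 1049 CPM in the diabetic sedentary library and 10014 against 5231 CPM in the library labelled none. Its log2 difference of 1.39 (SE 0.48) did not pass in edgeR (adjusted p = 0.102) but did in DESeq2 (1.44, adjusted p = 0.0127). Neat1, the scaffold of nuclear paraspeckles, had 511 against 497 CPM, 1243 against 319 CPM and 2773 against 904 CPM (1.22, SE 0.40, edgeR adjusted p = 0.0754; 1.28 and adjusted p = 0.0472 in DESeq2). Both were higher in every library, but Neat1 differed little in the exercise library. Counted per barcode, Malat1 averaged 0.885 against 1.89 UMIs in the exercise library, 4.77 against 2.27 in the diabetic sedentary library and 10.2 against 8.66 in the library labelled none. In the exercise library mitochondrial-rich barcodes therefore held fewer Malat1 molecules, and in the diabetic sedentary library more.

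Transcripts that contain ribosomal RNA repeats showed the same direction in CPM. All 4 tested members were fitted above 0 and 2 were called higher, beside 2.31% of all genes, with sums of 29174 CPM in mitochondrial-rich against 10597 CPM in low-mitochondrial barcodes of the exercise library, 19836 against 9389.9 CPM in the diabetic sedentary library and 30746 against 17714 CPM in the library labelled none. The ratio was 2.75, 2.11 and 1.74 with TMM and 3.09, 3.62 and 3.53 by total UMIs. Per barcode the list averaged 16.9 against 22.3, 16.1 against 20.3 and 31.4 against 29.3 UMIs. In number it was thus lower in both diabetic libraries. CT010467.1 had 193 against 44.6 CPM, 62.3 against 21.98 CPM and 37.1 against 27.6 CPM (log2 difference 1.64, SE 0.32, edgeR adjusted p = 0.000196). Gm26917 was the other call (1.003, SE 0.30, edgeR adjusted p = 0.0425); it turned to -0.15 when at least 60% of UMIs had to be acinar. Gm42418 carries nearly all UMIs of the list and had 28551 against 10292 CPM, 19164 against 9025 CPM and 29595 against 17109 CPM, but did not pass in edgeR (1.12, SE 0.57, adjusted p = 0.360); DESeq2 called it higher (1.18, adjusted p = 0.0127). These genes overlap repeats that reads of ribosomal RNA also match, so their counts are uncertain.

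**Figure D4:**
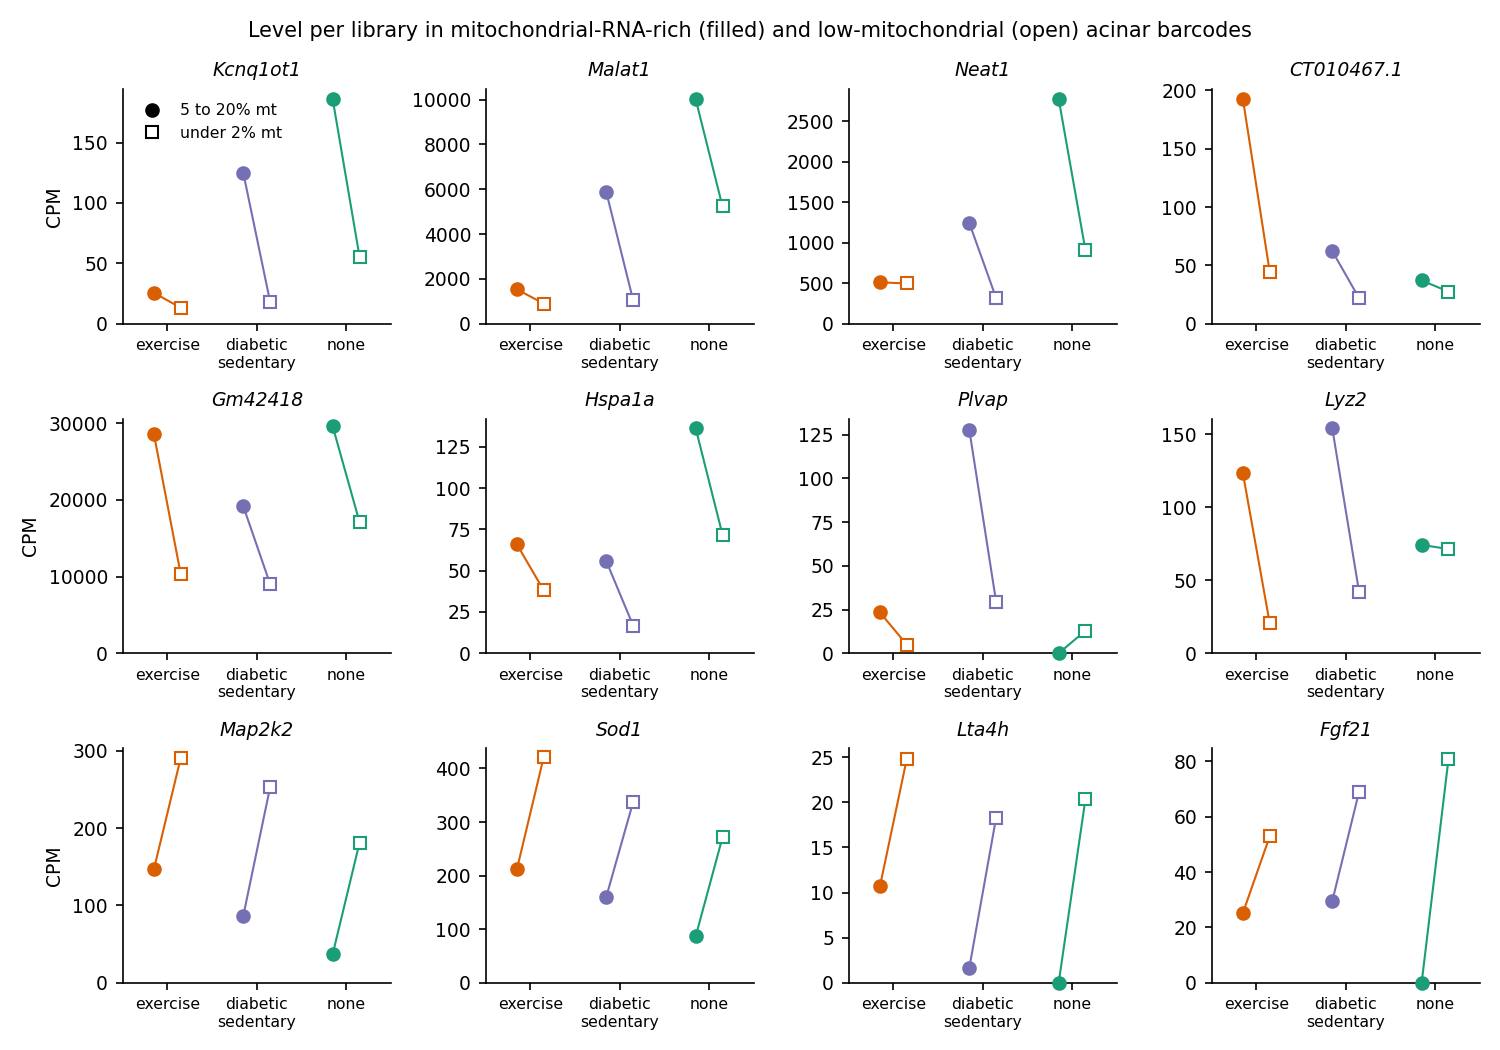
CPM (scaled by TMM) of 12 genes in mitochondrial-rich (filled circles) and low-mitochondrial (open squares) acinar barcodes of the exercise, diabetic sedentary and none libraries, 1 point per library and class joined by a line. Kcnq1ot1, Malat1, Neat1, CT010467.1, Gm42418 and Hspa1a are higher, and Map2k2 and Sod1 lower, in mitochondrial-rich barcodes of all 3 libraries. Lta4h and Fgf21 are lower in both diabetic libraries. Like Plvap, they have 0 UMIs in mitochondrial-rich barcodes of the library labelled none.

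RNAs of digestive enzymes outside the rule made up less of mitochondrial-rich barcodes. All 12 other digestive enzymes were fitted below 0, as were 52.1% of all genes tested, with a median of -0.94, and none passed in edgeR, with 4 at an unadjusted p under 0.05 and 3 called lower by DESeq2. Their sum was 274695 CPM in mitochondrial-rich against 357683 CPM in low-mitochondrial barcodes of the exercise library, 188794 against 441775 CPM in the diabetic sedentary library and 173599 against 429373 CPM in the library labelled none. Ratios were 0.768, 0.427 and 0.404 with TMM, and 0.861, 0.732 and 0.823 by total UMIs. Chymotrypsin C (Ctrc) had 33102 against 38916 CPM, 25972 against 60132 CPM and 23704 against 60847 CPM (log2 difference -0.94, SE 0.64). Prss1, a cationic trypsinogen, had 724 against 4506 CPM, 1149 against 1558 CPM and 0 against 7.74 CPM (-1.57, SE 0.52, edgeR adjusted p = 0.0814). The sum of the enzymes was below that of low-mitochondrial barcodes in each library, by the least in the exercise library.

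The Reg family, secreted lectin-like proteins that acinar cells make in inflammation, had 6 of 6 tested members fitted below 0 (median -0.94), 3 at an unadjusted p under 0.05, none passing in edgeR and 1 called lower by DESeq2. Their sums had ratios of 0.811, 0.400 and 0.389 with TMM and 0.910, 0.685 and 0.791 by total UMIs in the exercise, diabetic sedentary and none libraries. Reg1 had 62022 against 77741 CPM, 45685 against 119256 CPM and 35116 against 90682 CPM in mitochondrial-rich against low-mitochondrial barcodes. Proteins of the zymogen granule, the store of inactive enzymes, had 9 of 12 below 0 (median -0.73) with none passing in edgeR, 4 at an unadjusted p under 0.05 and 2 called lower by DESeq2. Their ratio was 0.927, 0.452 and 0.439 with TMM and 1.04, 0.774 and 0.893 by total UMIs, so in the exercise library it changed side with the scaling. Sycn, syncollin, had 139203 against 132416 CPM in the exercise library but 72767 against 155684 CPM in the diabetic sedentary library. Gp2, the main membrane glycoprotein of the granule, had 5484 against 11708 CPM, 3558 against 10147 CPM and 2909 against 9371 CPM, lower in all 3 libraries; it did not pass in edgeR (-1.43, SE 0.51, adjusted p = 0.117) but did in DESeq2 (-1.37, adjusted p = 0.00282).

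The machinery that folds and exports these enzymes was measured less firmly. ER chaperones had 22 of 23 tested members below 0 (median -0.67) and 1 called lower, beside 0.267% of all genes called lower; DESeq2 called another, P4hb, in place of it. Pdia4, a disulfide isomerase of the ER, had 33.5 against 75.2 CPM, 45.9 against 80.8 CPM and 0 against 28.7 CPM in mitochondrial-rich against low-mitochondrial barcodes of the exercise, diabetic sedentary and none libraries (log2 difference -1.08, SE 0.32, edgeR adjusted p = 0.0394). Without the diabetic sedentary library it was -1.35 and without the exercise library -1.12, and it passed in neither. The list's ratio was 0.764, 0.576 and 0.581 with TMM, but 0.857, 0.986 and 1.18 by total UMIs, so the library labelled none changed side. Acinar transcription factors and receptors (8 of 10 below 0, 4 at an unadjusted p under 0.05, none called by edgeR or DESeq2) also flipped, with 0.736, 0.698 and 0.699 by TMM and 0.825, 1.20 and 1.42 by total UMIs. Cckar, the receptor for the secretagogue cholecystokinin, had 512 against 813 CPM, 309.9 against 633 CPM and 248 against 611 CPM and did not pass (-0.97, SE 0.37, edgeR adjusted p = 0.172). Rbpjl, a subunit of the acinar PTF1 complex, was the other way round in all 3 libraries, with 349.6 against 329 CPM, 354 against 212 CPM and 285 against 226 CPM (0.39, SE 0.34, edgeR adjusted p = 0.652).

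Respiratory chain genes encoded in the nucleus, whose products join those of the mitochondrial genome, were measured beside them. Of 56 tested, 54 were fitted below 0 (median -0.52), 13 at an unadjusted p under 0.05, and none passed in edgeR or DESeq2. Their sum was 15729.8 CPM in mitochondrial-rich against 16036 CPM in low-mitochondrial barcodes of the exercise library, 9576 against 16732 CPM in the diabetic sedentary library and 7142 against 16505 CPM in the library labelled none. Per barcode they averaged 9.09 against 33.7 UMIs, 7.78 against 36.2 UMIs and 7.30 against 27.3 UMIs, and cytosolic ribosomal protein genes likewise averaged 71.4 against 275, 62.6 against 297 and 48.8 against 213 UMIs. Mitochondrial genes, which chose the barcodes, averaged 179 against 84.9, 151 against 96.5 and 134 against 28.9 UMIs, so no contrast with them is drawn. By total UMIs the nuclear sum was 1.10, 0.980 and 0.880 times that of low-mitochondrial barcodes, and with TMM 0.981, 0.572 and 0.433 times. Uqcrq of complex III had 1089 against 1173 CPM, 594 against 1193 CPM and 433 against 1219.8 CPM.

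Cytosolic ribosomal protein genes behaved much like the nuclear respiratory chain genes. All 56 were fitted below 0 (median -0.69), 14 at an unadjusted p under 0.05 (beside 1294 of all 9349 genes). None passed in edgeR and 2 were called lower by DESeq2. The ratio of sums was 0.942, 0.561 and 0.371 with TMM and 1.06, 0.960 and 0.755 by total UMIs in the exercise, diabetic sedentary and none libraries, so in the exercise library it changed side. No member was called by edgeR or DESeq2 among mitochondrial ribosomal proteins (29 tested, median -0.42) or import and carrier proteins (18, median -0.33). None was called in the tricarboxylic acid cycle (16, median -0.33) or among regulators of mitochondrial biogenesis (9, median 0.28) either. DESeq2 gave no adjusted p for 23, 12, 16 and 9 of their members. By total UMIs the medians were 0.10, 0.17, 0.18 and 0.76, so all but that of the biogenesis regulators changed side. At an unadjusted p under 0.05 these lists had 5, 2, 1 and 0 members, beside 1294 of all 9349 genes tested.

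Stress genes gave few calls with TMM. By total UMIs immediate early genes had more, while cytosolic heat shock genes had 1 under both scalings. Antioxidant and integrated stress response genes, described below, had none by total UMIs. Of 18 cytosolic heat shock genes tested, 1 was called higher by edgeR, beside 2.31% of all genes. DESeq2 called none but gave no adjusted p for 15 of them. Of the 18, 9 were fitted above 0 and the median was 0.01. Hspa1a, the inducible Hsp70, had 65.9 against 38.0 CPM, 55.8 against 16.8 CPM and 136 against 71.8 CPM in mitochondrial-rich against low-mitochondrial barcodes of the exercise, diabetic sedentary and none libraries (1.16, SE 0.30, edgeR adjusted p = 0.0113). It was higher in all 3 libraries, and passed neither without the diabetic sedentary library (0.85) nor without the exercise library (1.28). Immediate early genes, which dissociation can induce, had 2 of 21 called higher by edgeR, beside 2.31% of all genes, and a median of 0.32. The 2 were Egr3 at 2.06 and Fosl2 at 1.38 (edgeR adjusted p = 0.0494 and 0.0437), but Fosl2 turned to -0.070 under the 60% acinar minimum. DESeq2 called none and gave no adjusted p for 8 of the 21. By total UMIs 12 of the 21 were called higher, beside 558 of all 9349 genes. The list summed to 3737 against 3453 CPM, 6902 against 5356 CPM and 6944 against 7543 CPM, with ratios of 1.08, 1.29 and 0.921 by TMM and 1.21, 2.21 and 1.87 by total UMIs, so the library labelled none changed side. Jun had 329.5 against 332 CPM in the exercise library, 603 against 516 CPM in the diabetic sedentary library and 829 against 852 CPM in the library labelled none.

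Of 20 antioxidant genes tested, 1 was called lower by edgeR, beside 0.267% of all genes, and by DESeq2 (median -0.26). Sod1, the cytosolic superoxide dismutase, had 212 against 421 CPM in the exercise library, 161 against 337 CPM in the diabetic sedentary library and 86.6 against 272 CPM in the library labelled none (-1.15, SE 0.35, edgeR adjusted p = 0.0427). Its value was lower in every library, and it kept passing without the exercise library (-1.37) but not without the diabetic sedentary library (-1.25) or the library labelled none (-1.05). The integrated stress response had 1 of 20 called lower by edgeR (Fgf21, described below), beside the same 0.267%, and 15 below 0. DESeq2 called none but gave no adjusted p for 14 of the 20. The list's ratio of 0.931, 0.757 and 0.548 with TMM became 1.04, 1.30 and 1.12 by total UMIs. Apoptosis and p53 response genes had no call by edgeR or DESeq2 among 15, with 0 at an unadjusted p under 0.05 and a median of 0.29. DESeq2 gave no adjusted p for 14 of these 15. Genes of acinar injury and duct-like change had no such call among 16 either, with 5 at an unadjusted p under 0.05 and a median of 0.51. DESeq2 gave no adjusted p for 12 of these 16, and 6 were called higher by total UMIs, beside 558 of all 9349 genes. Their ratios were 1.20, 0.985 and 0.535 with TMM and 1.35, 1.69 and 1.09 by total UMIs, so both sedentary libraries changed side. Spp1, osteopontin, had 842 against 347 CPM, 595 against 402 CPM and 186 against 161 CPM (0.74, SE 0.37, edgeR adjusted p = 0.348).

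The largest calls that went the same way in all 3 libraries included 4 of the nuclear copies of mitochondrial genes. Gm28438, described above, had 3354 CPM in mitochondrial-rich against 406 CPM in low-mitochondrial barcodes of the exercise library, 2453 against 554 CPM in the diabetic sedentary library and 1547 against 172 CPM in the library labelled none (log2 difference 2.78, SE 0.43). Gm28661, Gm10925 and Gm28437 had log2 differences of 2.84, 2.68 and 2.59. These rows share nearly all their sequence with genes that chose the barcodes, so they are a description. Without all such copies 213 genes were called higher and 24 lower. The others among the 10 largest were Cd209d, Gm13349, Gm40309, Myo9a, Gm49599 and Gm37728, each with 65 to 256 UMIs in all. Cd209d, which encodes a C-type lectin, had 20, 6 and 1 UMIs in the mitochondrial-rich sums and 1, 6 and 31 in the low-mitochondrial sums (3.38, SE 0.86, edgeR adjusted p = 0.00825), and without the diabetic sedentary or the exercise library it no longer passed.

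Among the genes called lower, Map2k2 (chr10:81105915-81133975), which encodes the kinase MEK2 of the ERK pathway, had 147 against 291 CPM in mitochondrial-rich against low-mitochondrial barcodes of the exercise library, 86.9 against 253 CPM in the diabetic sedentary library and 37.1 against 181 CPM in the library labelled none. It fell by 1.38 on the log2 scale (SE 0.34, edgeR adjusted p = 0.00673). Map2k2 was lower in all 3 libraries; its log2 difference was -1.83 without the exercise library, -1.26 without the library labelled none and -1.39 without the diabetic sedentary library, where it did not pass. Fgf21 (chr7:45613886-45615490), a secreted hormone that pancreatic acinar cells make, had 25.2 against 52.9 CPM, 29.5 against 69.1 CPM and 0 against 80.8 CPM (-1.30, SE 0.33, edgeR adjusted p = 0.0081). Its 0 is among 79 barcodes. It did not pass without the exercise library (-1.73) or without the diabetic sedentary library (-1.52).

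Lta4h, the hydrolase that makes leukotriene B4, had 10.7 against 24.8 CPM, 1.64 against 18.3 CPM and 0 against 20.4 CPM in the exercise, diabetic sedentary and none libraries (-1.62, SE 0.44, edgeR adjusted p = 0.0149). S100g, the vitamin D-dependent calcium-binding protein calbindin-D9k, had the smallest fitted value: 20, 2 and 0 UMIs in the mitochondrial-rich sums and 33, 87 and 2 UMIs in the low-mitochondrial sums (-2.65, SE 0.55, edgeR adjusted p = 0.000422). The remaining named genes (Gm10039, Tmem94, Gm6863, Mfsd5, Isg20 and Nuak1) lay between -2.40 and -1.34. Of the 8 besides Map2k2 and Fgf21, none passed without the diabetic sedentary or without the exercise library, and all passed without the library labelled none. All 10 but Map2k2, which had 3, had 0 or 1 UMI in mitochondrial-rich barcodes of the library labelled none, so their direction there rests on few molecules.

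The relative level of RNAs of other cell types moved with the class too. All 6 endothelial markers and 5 of 6 macrophage markers were called higher by edgeR, beside 2.31% of all genes; DESeq2 gave none of these 12 an adjusted p. Plvap, of fenestrated capillaries, had 23.4 against 4.96 CPM in mitochondrial-rich against low-mitochondrial barcodes of the exercise library, 128 against 29.5 CPM in the diabetic sedentary library and 0 against 12.9 CPM in the library labelled none (1.90, SE 0.34, edgeR adjusted p = 2.74e-05). The 6 endothelial markers summed to 94.6 against 25.6 CPM, 525 against 129 CPM and 0 against 66.0 CPM, and the library labelled none had 0 UMIs. A count of 0 there allows up to 3 UMIs, which is 0.563 times the low-mitochondrial level with TMM, and by total UMIs the upper limit of the ratio was 1.41, so a lower level there is not shown. Lyz2, a lysozyme of macrophages, had 123 against 20.7 CPM, 154 against 42.0 CPM and 74.3 against 71.4 CPM (1.75, SE 0.31, edgeR adjusted p = 2.74e-05). Csf1r, the receptor for macrophage colony-stimulating factor, had 19.3 against 4.96 CPM, 37.7 against 5.87 CPM and 0 against 13.8 CPM (2.03, SE 0.42). The 6 macrophage markers summed to 318 against 81.8 CPM, 426 against 123 CPM and 124 against 232 CPM. In the library labelled none the ratio was 0.534 with TMM but 1.09 by total UMIs, so its direction turned with the scaling. Per barcode the exercise library hardly differed, with 0.0547 against 0.0538 endothelial and 0.184 against 0.172 macrophage UMIs. The diabetic sedentary library had 0.426 against 0.279 and 0.346 against 0.267. The library labelled none had 0 against 0.109 and 0.127 against 0.384.

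Plvap was at 1.48 and Lyz2 at 1.53 without the diabetic sedentary library, and no endothelial or macrophage marker passed there. Without the exercise library they were at 1.60 and 1.16 and did not pass, and with at least 60% acinar UMIs the endothelial markers Flt1 and Kdr turned to -0.60 and -0.25. Among islet markers, 2 of 6 tested were called higher, Iapp at 1.58 and Ins1 at 1.17 (edgeR adjusted p = 0.00153 and 0.0394). Their sum was 691 against 269 CPM, 2952 against 673 CPM and 186 against 1189.6 CPM, opposite in the library labelled none under both scalings (0.156 with TMM and 0.318 by total UMIs). Ins1 turned to -0.27 without the diabetic sedentary library. Mural markers summed to 44.7 against 17.4 CPM, 202 against 32.4 CPM and 24.8 against 19.6 CPM, with Rgs5 called higher (2.62, SE 0.36, edgeR adjusted p = 1.13e-09). Without the diabetic sedentary library Rgs5 was at 1.92 and did not pass, and its lowest value over the other alternatives was 0.84. Ductal markers summed to 1258 against 728 CPM, 846 against 751 CPM and 384 against 463 CPM, with ratios of 1.73, 1.13 and 0.828 by TMM but 1.94, 1.93 and 1.68 by total UMIs, so the library labelled none changed side. They had no call by edgeR or DESeq2 among 7 and 1 at an unadjusted p under 0.05. Ductal UMIs per barcode were fewer in mitochondrial-rich barcodes of every library. The exercise library had 6833 in 9404 mitochondrial-rich against 881 in 576 low-mitochondrial barcodes. Fibroblast markers (6 tested), erythroid markers (4), neutrophil markers (2) and B-cell markers (1) had no call by edgeR or DESeq2 either, with 2, 1, 0 and 1 members at an unadjusted p under 0.05 and 1, 2, 0 and 1 called higher by total UMIs, and T-cell markers had too few UMIs to test. By total UMIs 558 of all 9349 genes were called higher. DESeq2 gave no adjusted p for 5 ductal, 5 fibroblast, 1 erythroid, 2 neutrophil and 1 B-cell markers. The part of these cell types in the other calls was not tested.

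Barcodes carrying such RNAs were counted. In the exercise library 922 of 9404 mitochondrial-rich barcodes (9.80%) and 94 of 576 low-mitochondrial ones (16.3%) had at least 3 UMIs of 1 other cell type's markers. In the diabetic sedentary library they were 196 of 751 (26.1%) and 1259 of 5515 (22.8%), and in the library labelled none 5 of 79 (6.33%) and 799 of 7489 (10.7%). With these barcodes left out 149 genes were called higher and 7 lower, and 99 of the 165 higher calls that could still be tested remained. The shares were not thinned to equal depth, and how far free RNA or doublets put these RNAs there was not tested.

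**Figure D5:**
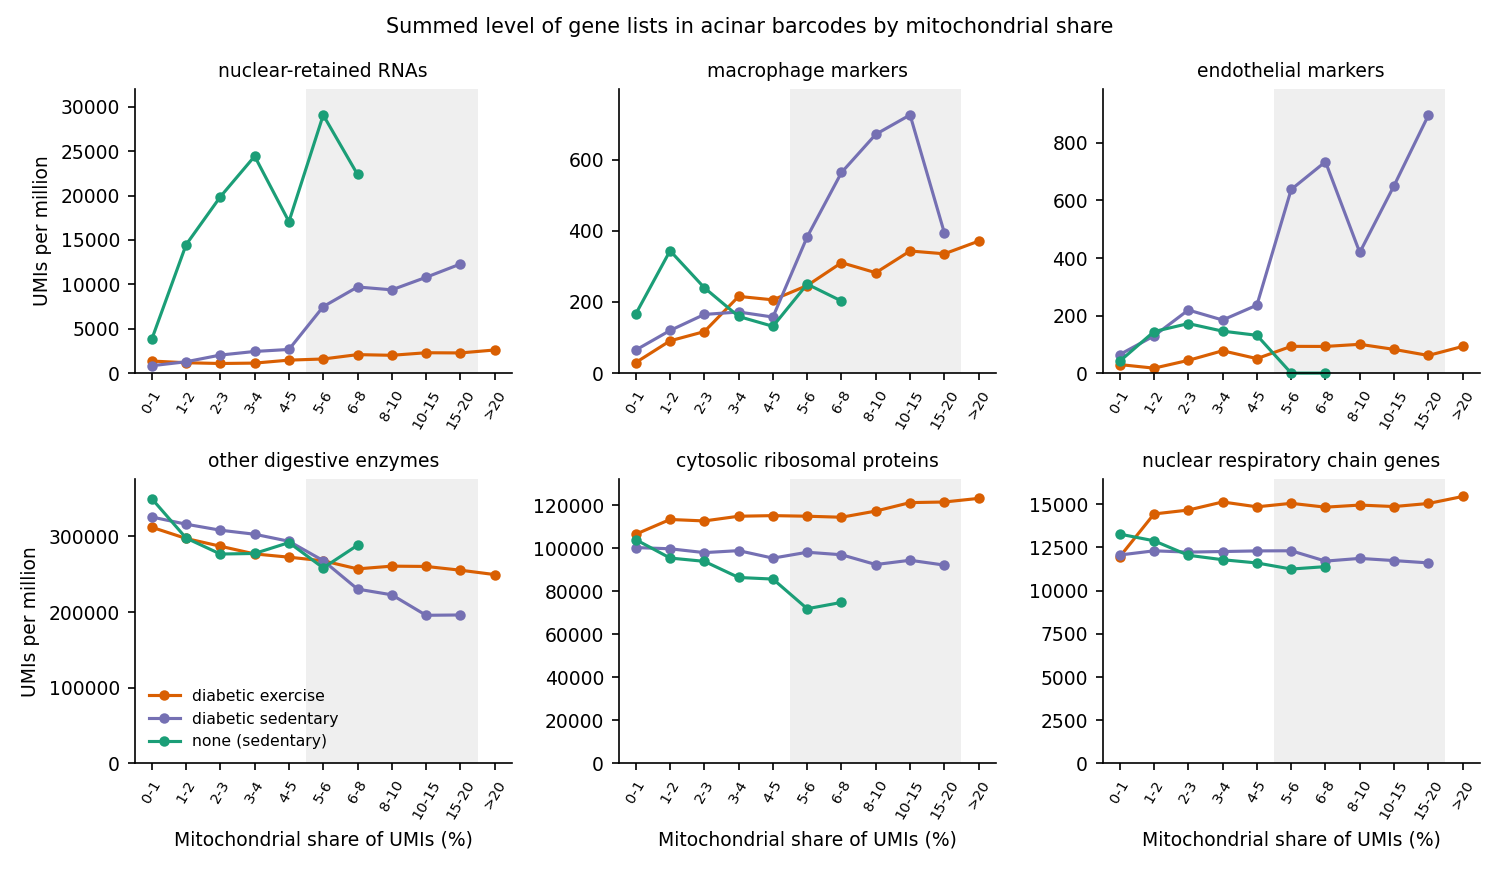
Summed level of 6 gene lists (CPM outside the rule genes, without TMM) in acinar barcodes by band of mitochondrial share (%), for the exercise, diabetic sedentary and none libraries, with the 5 to 20% window shaded; bands with under 20 barcodes are not drawn. Nuclear-retained RNAs of the diabetic sedentary library stand at 2666 at 4 to 5% mitochondrial and 7489 at 5 to 6%, while in the exercise library they stay between 1085 and 2606.

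Across the whole range of mitochondrial share the libraries differed in shape. Nuclear-retained RNAs, as CPM without TMM, were at 1362 in exercise barcodes under 1% mitochondrial, at 1464 at 4 to 5%, at 1592 at 5 to 6% and at 2275 at 15 to 20%. In the diabetic sedentary library the same bands held 835, 2666, 7489 and 12289. In the library labelled none, barcodes under 1% held 3826, and the 24 barcodes at 5 to 6% held 29064. The level thus changed little across the limit in the exercise library and stepped up at it in the diabetic sedentary library. Other digestive enzymes ran the other way, with 312191 under 1% and 255436 at 15 to 20% in the exercise library, against 325745 and 196260.0 in the diabetic sedentary library.

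Mitochondrial-rich barcodes of the exercise and the diabetic sedentary library were also set side by side, gene by gene, without a test. Of 3715 genes with at least 50 UMIs in the higher library, 452 were at least 2-fold higher in the exercise library (12.2%) and 65 at least 2-fold lower (1.75%), beside a median ratio of 1.32. The exercise sum is the deeper, with 5726025 against 489403 UMIs, so genes reached 50 UMIs mostly through it. With at least 100 CPM in the higher library instead, 32 were higher and 48 lower of 734, so the side with more genes turned with the filter. In low-mitochondrial barcodes 17 of 5239 were 2-fold higher and 452 were 2-fold lower, with a median ratio of 0.841. Scaled by total UMIs, 200 were higher and 109 lower in mitochondrial-rich barcodes, with a median of 1.17. Of the 452 higher genes, 209 were measured in low-mitochondrial barcodes and 7 were 2-fold higher there; of the 65 lower genes, 60 were measured and 25 were 2-fold lower there.

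Immunoglobulin genes, made by plasma cells, led the higher genes. Igha, the heavy chain of IgA, had 437 UMIs in mitochondrial-rich barcodes of the exercise library and 0 in those of the diabetic sedentary library, which makes it at least 16.4-fold higher against a floor of 3 UMIs. Ighg1 had 286 against 0 UMIs, at least 10.7-fold higher. Igkc, the kappa light chain, had 275 against 23.0 CPM (ratio 11.99, interval 7.12 to 21.98). These genes were also higher in low-mitochondrial barcodes of the exercise library, where Igkc had 142 against 18.9 CPM and Igha had 44 against 0 UMIs. Retnla, a marker of alternatively activated macrophages, had 94.1 against 9.84 CPM (ratio 9.56, interval 4.36 to 26.2). Sigirr, Pigk, Lfng and Amy2a3 completed the 8 largest ratios with 1 to 2 UMIs in the diabetic sedentary sum; Amy2a3, a pancreatic amylase, had 170 against 2 UMIs (9.54, interval 2.60 to 79.4) and belongs to a family of near-identical copies.

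The 8 smallest ratios were vascular and stromal genes: Rgs5, Flt1, Cxcl14, Epas1, Dcn, Kdr, Igfbp7 and Plvap. Rgs5, of pericytes, had 16.6 CPM in mitochondrial-rich barcodes of the exercise library against 162 CPM in those of the diabetic sedentary library (ratio 0.102, interval 0.0759 to 0.137). Dcn, the matrix proteoglycan decorin, had 67.6 against 467 CPM (0.145, interval 0.123 to 0.169). Both were lower in low-mitochondrial barcodes as well, where Rgs5 had 1.65 against 21.5 CPM and Dcn 57.9 against 129 CPM. The endothelial list summed to 0.180 times the diabetic sedentary level in mitochondrial-rich barcodes and to 0.198 times in low-mitochondrial ones.

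Nuclear-retained RNAs were lower in the exercise library in mitochondrial-rich barcodes and near the diabetic sedentary level in low-mitochondrial ones. Their sum in the exercise library was 0.291 times that of the diabetic sedentary library in mitochondrial-rich barcodes (interval 0.281 to 0.301) and 1.03 times in low-mitochondrial barcodes (0.977 to 1.078); by total UMIs the ratios were 0.221 and 1.19. Nuclear respiratory chain genes were at 1.64 times in mitochondrial-rich and 0.958 times in low-mitochondrial barcodes, and cytosolic ribosomal proteins at 1.60 and 0.954 times; by total UMIs these were 1.25 and 1.11, and 1.22 and 1.11. Immediate early genes were lower in the exercise library in both classes, at 0.542 and 0.645 times. Intervals cover counting error only, and these differences between the classes were not tested.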

How the data were processed

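For each library the authors deposited UMI counts per gene and barcode, with no normalization. Cell Ranger is named in version 7.1.0 per the submitters' processing notes and in version 6.1.2 per the file headers; the genome build is not stated in the sources used. All 55450 features were matched by identifier to GENCODE M21 (GRCm38). The members and gene lists were chosen with earlier results of these data known. Counts were summed per library and class without the mitochondrial genes and the 16 acinar genes, filtered with filterByExpr and tested with edgeR 4.0.16 (R 4.3.3; TMM, library term, quasi-likelihood test, Benjamini-Hochberg over all genes tested). DESeq2 1.42.0 was an alternative; it gave no adjusted p for 8700 of 9349 genes. Classes with at least 20 barcodes per library entered. Nuclear copies were found with BLAST 2.17.0 (matches of at least 100 bases). Thinning used 1 seed. Shares have Clopper-Pearson and ratios exact Poisson intervals at 95%. The code was tested on simulated data, where edgeR called 11% of 2-fold and 64% of 4-fold changes. A missing call therefore does not show a lack of change. Named genes were the 10 largest and 10 smallest log2 values among calls that went the same way in every library with at least 50 UMIs; of each list, up to 4 calls and the 2 members with most UMIs; and the 8 largest and 8 smallest library ratios. Other genes named were chosen after their values were seen. Total UMIs outside the rule genes per sum ran from 49538 to 16380996, which limits the library labelled none most. Alternatives changed the normalization, tool, filter, limits of the rule, depth, doublets, libraries and minimums. 1 acinar gene outside the rule is not reported here.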

Additional observations from a re-analysis of the deposited data

Results flagged for a closer look

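Marker sums of other cell types went opposite ways between libraries, and these differences were not tested. Fibroblast markers in mitochondrial-rich over low-mitochondrial barcodes were at a ratio of 0.679 in the exercise library and 2.64 in the diabetic sedentary library. Islet markers were at 2.57 in the exercise library and 4.38 in the diabetic sedentary library, but at 0.156 in the library labelled none. Neutrophil markers (S100a8 and S100a9) were at 4.06 in the exercise library, from 146 against 8 UMIs, and at 0.269 in the diabetic sedentary library, from 8 against 581 UMIs. Outside the acinar barcodes, which the comparisons use, 56.3% of passing barcodes in the exercise library and 36.8% in the diabetic sedentary library lay at 5 to 20% mitochondrial, above the 1.47% of the sedentary library labelled none.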

How the results depend on the processing

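Counts of genes called higher and lower were 558 and 7 by total UMIs (added after seeing the data), 64 and 2 with no filter on low counts, 4 and 0 without the library term (818 at an unadjusted p under 0.05), 77 and 2 at 7 to 20% mitochondrial, 18 and 5 with a 60% acinar minimum, 141 and 14 with the share taken from the 13 protein genes, 2 and 0 in barcodes of 1000 to 3000 UMIs, and 12 and 0 thinned to 500 UMIs (259 at an unadjusted p under 0.05). Of the 4 calls without the library term, Gm28437, Gm10925 and Gm28661 were nuclear copies of mitochondrial genes. DESeq2 called 8 higher, and 18 lower. Lower calls were 14 with at least 1000 UMIs, 13 with the top 5% of doublet scores removed and 7 without barcodes carrying other cell types' markers (added after seeing the data). Leaving out each library gave 1 to 396 higher and 0 to 150 lower. For the exercise library, the share of mitochondrial-rich barcodes was 46.8% at 7 to 20%, 57.9% at 60% acinar, 66.0% at 1000 UMIs and 58.0% with protein genes alone; median UMIs under these settings were 1820.0, 1989, 1876 and 1825. Thinned genes were 98 at 7 to 20% and 96 at 60% acinar in the exercise library. In the diabetic sedentary library the share of mitochondrial-rich barcodes under these settings was 4.41% and 2.69%, against 8.05% by the main rule. Their median UMIs were 1272 and 2727, against 1452. In the library labelled none the share was 0.396% and 0.413%, against 0.978%. The ribosomal RNA share of its mitochondrial-rich barcodes in the exercise library was 19.0% at 7 to 20%, 18.5% at 60% acinar, with protein genes or with doublets removed, and 18.6% without marker-carrying barcodes. In low-mitochondrial barcodes of that library it was 14.3%, 14.5%, 16.4%, 14.3% and 15.2% under these settings in the same order. Genes past 2-fold between the exercise and diabetic sedentary libraries (517 in all) were 309 by total UMIs, 1018 at 7 to 20%, 811 with doublets removed, 826 without marker-carrying barcodes and 80 with at least 100 CPM, where 32 were higher and 48 lower against 452 and 65 in the main count; the last 2 were added after seeing the data. Reversed were Fosl2 (-0.070), Flt1 (-0.60), Kdr (-0.25) and Gm26917 (-0.15) at 60% acinar, and Ins1 without the library term (-0.33) and without the diabetic sedentary library (-0.27; leaving out each library gave -0.27 to 2.40). The cause was not tested. No paired analysis across groups was possible because each group has 1 library; the library term pairs the 2 classes within it.

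Without the exercise library 7 of 43 named genes still passed, without the diabetic sedentary library 1 (Gm28437), and without the library labelled none 39. Gm28437 is the nuclear copy of mt-Co3, so its call is a description. The 7 include Gm28438, the copy of mt-Nd3. Depth limits the library labelled none, where mitochondrial-rich barcodes hold 49538 UMIs outside the rule genes.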
